A study of Mus musculus with 5 samples.

Results

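The genes of the ZSWIM8 ubiquitin ligase were examined in single-cell RNA-seq of mouse lung at stage E18.5, shortly before birth. The set holds 8 of the 32285 genes in the count matrices, matched by symbol: Zswim8, Cul3, Elob, Eloc, Rbx1, Arih1, Ube2l3 and Nedd8. It was chosen with earlier results of these data known. All 8 were found, each under 1 identifier. Whole lungs of 2 Zswim8+/- embryos (Het1 and Het2) and 3 Zswim8-/- embryos (KO1, KO2 and KO3) were dissociated with collagenase and DNase I, passed through a red blood cell lysis buffer, and captured with the 10x 3′ chemistry, 1 library per embryo. The control embryos carry 1 mutant Zswim8 allele, so wild-type lungs are not part of the comparison. The labels give neither the strain nor the part of Zswim8 that the mutation removes, nor whether embryos shared a litter, and they give no treatment.

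ZSWIM8 is a substrate adaptor of a cullin-RING ubiquitin ligase. In such ligases a cullin scaffold, here CUL3, holds the adaptor at one end, for ZSWIM8 through elongin B and elongin C, and the RING protein RBX1 at the other. Covalent attachment of NEDD8 switches the cullin on, and the activated ligase can work with ARIH1, a RING-between-RING ligase that receives ubiquitin from the E2 enzyme UBE2L3 and places it on the substrate. ZSWIM8 is best known for target-directed microRNA degradation, in which an RNA that pairs extensively with a microRNA leads to ubiquitination of the Argonaute protein that carries it. Loss of Zswim8 in mice is known to be lethal around birth, with immature lungs among the defects.

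The deposited matrices held between 8722 and 13539 barcodes per library. The filter kept a barcode if 500 or more genes were detected in it and its mitochondrial share did not exceed 15%. Haemoglobin counts played no part in this filter. Removal of doublets then left 18869 cells, between 3051 and 4634 per library. The median depth of these cells lay between 9725 and 12788 unique molecular identifiers (UMIs) per library. Pairs of libraries shared between 17 and 44 barcodes. KO1 and KO2 were female by Xist and Y-linked counts and the other libraries male, so sex and genotype overlap in part. Red-cell barcodes, those with under 500 genes and over 50% haemoglobin counts, were 1865 in KO1 and 6596 in Het1. Clusters were named from marker genes, and the 8 genes took no part in the clustering. Of the 31 classes and clusters, 20 had at least 20 cells in every library, and 11 had at least 100 and were tested.

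Zswim8 lies on chromosome 14 of GRCm38 from 20707552 to 20723619, on the plus strand. Cul3 spans 80264923 to 80340480 on chromosome 1 and Eloc 16641725 to 16657042 on the same chromosome, both on the minus strand. Rbx1 lies on the plus strand of chromosome 15 from 81466296 to 81476369, and Arih1 on the minus strand of chromosome 9 from 59388258 to 59486618. Zswim8, Cul3, Arih1 and Nedd8 shared no 50-base stretch of the last 500 transcript bases with another annotated gene. Elob, on the minus strand of chromosome 17 from 23824738 to 23829136, shared 41.91% of such stretches with 5 processed pseudogenes. Ube2l3, on the minus strand of chromosome 16 from 17152013 to 17202649, shared 12.88% with 11 pseudogenes. Rbx1 shared 10.32% with 1, and Eloc 0.65% with 2. None of these pseudogenes is among the genes of the count matrices. How reads from the shared pieces were counted was not tested, so any bearing on the levels of Elob, Ube2l3, Rbx1 and Eloc is not known. Nedd8, on the minus strand of chromosome 14 from 55662263 to 55672124, overlaps Gmpr2 on the opposite strand, and Elob and Ube2l3 overlap Srrm2 and Ydjc in the same way.

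Zswim8 RNA was not lower in the libraries labelled KO. Levels are UMI counts in counts-per-million units (CPM), here scaled with TMM factors. Over all kept cells Zswim8 stood at 37.5 CPM in Het1 and 39.1 in Het2, against 38.8 in KO1, 38.6 in KO2 and 40.4 in KO3. The groups overlapped. Values of a group are listed in the order of its libraries. The log2 difference, KO over Het, was 0.04 with a 95% interval from -0.10 to 0.17, so a fall below 0.932 times the Het level lay outside it (edgeR quasi-likelihood test, adjusted p = 0.721). A 3′ count reads the end of the transcript. The position of the mutation was not given in the sources used here, so this level neither bears out nor contradicts the genotype labels, and the groups are named as labelled.

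None of the 8 genes passed the test between the groups over all kept cells. By the same edgeR test, 793 of 17759 genes passed an adjusted p of 0.05, which is 4.47% of those tested, and 0 of the 8. At an unadjusted p under 0.05, 0 of the 8 passed in edgeR and 0 in DESeq2, against 25.7% of all genes in edgeR. The groups did not overlap for 1 of the 8, Eloc, against 47% of all genes. The median log2 difference was 0.04 over the 8 genes and 0.0052 over all genes tested.

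**Figure D1:**
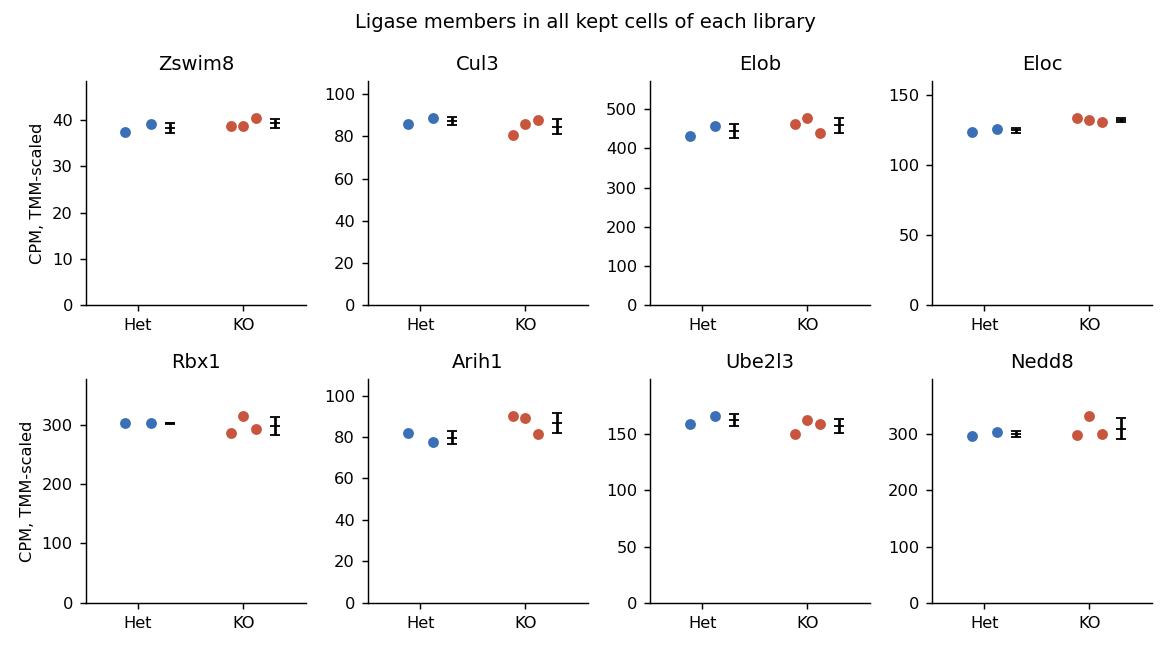
Level of each of the 8 genes over all kept cells, in TMM-scaled CPM (vertical axes, starting at 0), in the 2 Het and 3 KO libraries (points). The group mean is a line, and the bar on it is the SD over the group's libraries. Zswim8 lies between 37.5 and 40.4 in all 5 libraries, and Eloc is the gene whose KO points all lie above its Het points.

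Cul3, the scaffold, stood at 86.0 and 88.6 CPM in the Het libraries and at 80.7, 85.7 and 87.7 in KO. The KO range reached from below both Het values to between them, and the log2 difference was -0.04 (interval -0.18 to 0.10).

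Elob, elongin B, the ubiquitin-like part of the linker, stood at 432 and 456 CPM in Het and at 462, 476 and 439 in KO. KO3 lay between the Het libraries and the others above, with a log2 difference of 0.05 (interval -0.11 to 0.20). Eloc, elongin C, which touches both the adaptor and the cullin, stood at 123 and 126 CPM in Het and at 133, 132 and 130 in KO. Each KO value was above each Het value, but the log2 difference was only 0.08 (SE 0.05, interval -0.04 to 0.20, edgeR adjusted p = 0.332).

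Rbx1, the RING protein that recruits an E2 to the cullin, stood at 302 and 302 CPM in Het and at 285, 314 and 292 in KO. KO2 was above and the other KO libraries were below both Het values, with a log2 difference of -0.02 (interval -0.18 to 0.13).

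Arih1 stood at 81.9 and 77.5 CPM in Het and at 90.1, 89.0 and 81.5 in KO. KO3 fell between the Het libraries, and the log2 difference of 0.12 (interval -0.04 to 0.28) had an edgeR adjusted p of 0.287. Its partner E2, Ube2l3, stood at 159 and 166 CPM in Het and at 150, 162 and 159 in KO. No KO value was above the higher Het value, and the log2 difference was -0.05 (interval -0.19 to 0.10). Nedd8 stood at 296 and 304 CPM in Het and at 297, 331 and 299 in KO. Only KO2 was above both Het libraries, and the log2 difference was 0.04 (interval -0.12 to 0.21).

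The level of each gene was then followed across the 20 cell classes, in CPM of UMIs summed per library and class. These are descriptions, since the classes were drawn from the same cells. Neutrophil-like cells had the lowest level for 6 of the 8 genes, and the other two were lowest in cluster 13, an epithelial cluster of shallow cells led by Lars2 and Krt7. Of the 152 pairs of neighbouring classes in the 8 orders, 147 had overlapping ranges over the 5 libraries, so most neighbours cannot be told apart. The highest and lowest class did not overlap for 7 of the 8 genes, and did for Arih1. The coefficient of variation between classes was 17.2% for Rbx1, the lowest of the 8, and 33.2% for Zswim8, the highest.

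**Figure D2:**
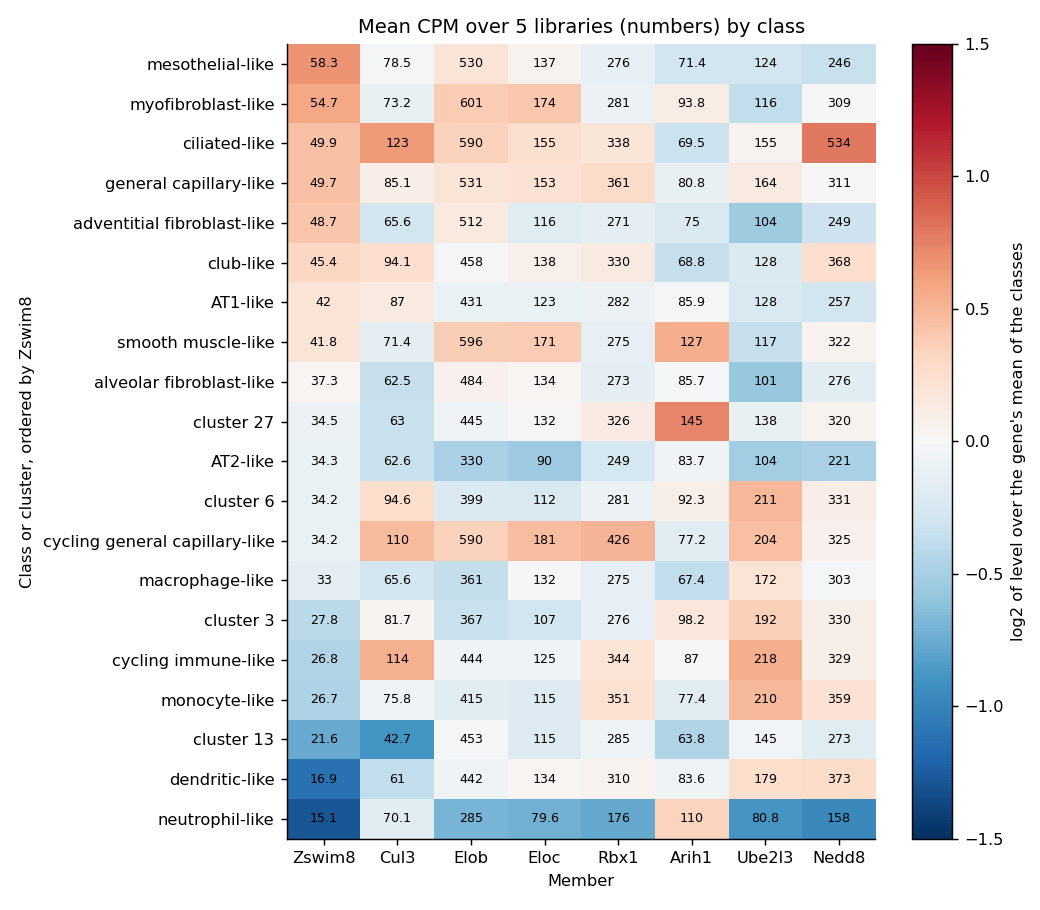
Mean level over the 5 libraries of each gene in the 20 cell classes and numbered clusters, as the log2 ratio to that gene's own mean over the classes (colour), so that genes can be set side by side without comparing their counts. Neutrophil-like cells are the lowest class for 6 of the 8 genes, and Arih1 is above its mean there.

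Zswim8 was highest in mesothelial-like cells, which line the lung surface, at 58.3 ± 5.93 CPM (SD, n = 5 libraries). Myofibroblast-like cells followed at 54.7 ± 8.72, ciliated-like cells at 49.9 ± 2.02, general capillary-like cells at 49.7 ± 2.98 and adventitial fibroblast-like cells at 48.7 ± 4.52. These upper classes were stromal, epithelial and endothelial, and neighbours among them could not be separated.

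In the alveolar epithelium, type 1-like (AT1-like) cells, the flat gas-exchange cells, held Zswim8 at 42.0 ± 4.19 CPM and type 2-like (AT2-like) cells, which make surfactant, at 34.3 ± 6.45. Macrophage-like cells stood at 33.0 ± 6.54 and monocyte-like cells at 26.7 ± 2.86. The low end was myeloid, with 16.9 ± 8.73 CPM in dendritic-like cells and 15.1 ± 4.39 in neutrophil-like cells. The mesothelial-like mean was 3.87 times the neutrophil-like mean. The values ran from 50.5 to 66.1 in mesothelial-like cells and from 10.4 to 21.7 in neutrophil-like cells, without overlap. The top of this order depends on how cells are averaged: with the mean taken over cells instead of over summed UMIs myofibroblast-like cells led.

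Cells of the smaller lymphatic-like class, which fell under the 20-cell minimum, held more Zswim8 on average than any class above. The level was 82.8 CPM in Het1 (12 cells, 15 UMIs), 57.2 in Het2 (6 cells, 18 UMIs), 94.5 in KO1 (37 cells), 104.7 in KO2 (20 cells) and 90.0 in KO3 (31 cells). The Het values rest on so few UMIs that no comparison of genotypes was made in this class, which was singled out after its values were seen.

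Cul3 was highest in ciliated-like cells, which carry motile cilia, at 123 ± 7.48 CPM. Cycling immune cells followed at 114 ± 8.36 and cycling general capillary-like cells at 110 ± 15.6. Its lowest named class was dendritic-like cells, at 61.0 ± 13.3, and cluster 13 stood lower at 42.7 ± 19.96.

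The elongins shared the upper part of their orders. The 3 highest means of Elob were 601 ± 69.1 CPM in myofibroblast-like, 596 ± 23.9 in smooth muscle-like and 590 ± 22.5 in cycling general capillary-like cells. Averaged over cells, Elob was highest in ciliated-like cells. Eloc was highest in cycling general capillary-like cells at 181 ± 13.02 CPM, followed by myofibroblast-like cells at 174 ± 21.9 and smooth muscle-like cells at 171 ± 12.97. Both ended with AT2-like cells above neutrophil-like cells: Elob stood at 330 ± 46.6 and 285 ± 28.1 CPM in that last pair. Eloc stood at 90.0 ± 11.8 in AT2-like and 79.6 ± 8.74 in neutrophil-like cells. Across the 20 classes the Pearson correlation of their log2 levels was 0.90, given as a description, since the classes share libraries and depth.

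Rbx1 was highest in cycling general capillary-like cells, at 426 ± 20.7 CPM against 361 ± 25.2 in general capillary-like cells outside the cycle. The ranges of this pair did not overlap. Nor did those of its lowest pair, 249 ± 27.2 in AT2-like and 176 ± 17.1 in neutrophil-like cells.

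Nedd8 had the most isolated maximum of the set. Ciliated-like cells held 481 and 493 CPM in Het and 517, 572 and 607 in KO. Every library was above the highest value of the second class, dendritic-like cells, which ranged from 324 to 419 CPM. Nedd8 was also lowest in neutrophil-like cells, at 158 ± 18.6 CPM, below AT2-like cells at 221 ± 14.2 without overlap. The fifth pair of neighbours without overlap was Eloc in general capillary-like and club-like cells, at 153 ± 3.18 and 138 ± 8.92 CPM.

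Ube2l3 was highest in immune classes: cycling immune cells held 218 ± 4.57 CPM, cluster 6, an immune cluster led by Ear2 and Lpl, held 211 ± 5.16, and monocyte-like cells held 210 ± 7.06. Its fibroblast levels were about 100 CPM, with 101 ± 11.3 in alveolar fibroblast-like cells, and neutrophil-like cells were lowest at 80.8 ± 11.2.

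The highest mean of Arih1 was that of cluster 27, shallow cells led by the platelet genes Clec1b and Ppbp, at 145 ± 44.4 CPM, followed by smooth muscle-like cells at 127 ± 20.7. Averaged over cells, smooth muscle-like cells led. Neutrophil-like cells, the low end for most of the set, came next at 110 ± 8.96. Club-like cells, secretory cells of the airway, stood at 68.8 ± 8.29 and macrophage-like cells at 67.4 ± 9.59. The correlation of Arih1 with each of the other 7 genes over the classes was negative, between -0.06 with Eloc and -0.26 with Rbx1.

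**Figure D3:**
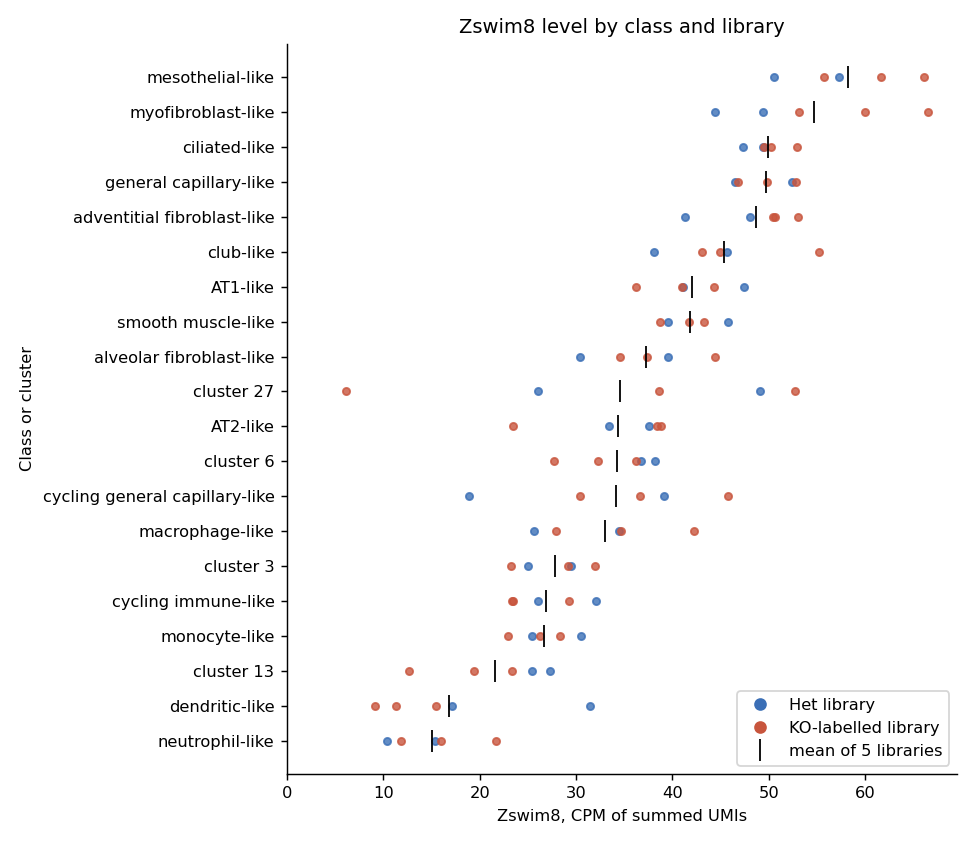
Zswim8 level in CPM of UMIs summed per library and class (horizontal axis), for 20 cell classes and clusters ordered by mean, with 1 point per library coloured by genotype label. Mesothelial-like cells lie between 50.5 and 66.1 and neutrophil-like cells between 10.4 and 21.7, and the ranges of neighbouring classes overlap throughout.

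The genes whose order over the 20 classes was most like that of Zswim8, among 9085 genes with a mean of at least 10 CPM, were Dcaf8 (Pearson r of log2 levels 0.94), Zfp609 (0.94), Rgmb (0.93), Msantd4 (0.92) and Nfe2l1 (0.92). For Cul3 they were Atxn2l (0.91) and Zc3h7a (0.87), for Elob Eef1akmt2 (0.92) and Csrp2 (0.91), and for Eloc Gtf2a2 (0.93) and Camta1 (0.91). Rbx1 was most like Psmc4 (0.92) and Psmb7 (0.91), and Nedd8 most like Psmb5 (0.93) and Utp18 (0.93). Psmc4, Psmb7 and Psmb5 encode proteasome subunits. Ube2l3 was most like Imp4 (0.95) and Mrps18c (0.94), and Arih1 reached only 0.72 with Slmap and 0.71 with Rasgrp2.

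The share of cells with at least 1 UMI was compared after each cell was thinned to 3000 UMIs, which left out 2193 shallower cells (588 of KO1, the largest share of a library). For Zswim8 the share was 9.66% and 10.1% in Het and 10.2%, 9.87% and 10.8% in KO. The groups overlapped (difference of means 0.44 percentage points, exact permutation test, two-sided p = 0.4, where the smallest possible is 0.1). Before thinning, the mean share was 32.6% in Het and 33.6% in KO. Red-cell barcodes, with a median depth between 2328 and 2621.5 UMIs, gave 0.569% after thinning and 0.705% before. Most of them held fewer than 3000 UMIs, so their share after thinning covers only the deeper ones. Most UMIs of red-cell barcodes are haemoglobin by their definition, which lowers such shares for every other gene.

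The same share was highest for Elob, at 69.3% in Het and 71.7% in KO. Of the red-cell barcodes deep enough to be thinned, 22.0% held Elob after thinning. As CPM of the UMIs outside haemoglobin genes, Elob was higher in red-cell barcodes than in cells, at 597 ± 47.0 against 459. Zswim8 was lower there, at 15.05 ± 5.20 against 39.4 CPM, and the other 6 genes were lower too.

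Eloc was detected in 28.6% and 29.6% of thinned Het cells and in 31.9%, 30.9% and 31.2% of KO cells. All KO libraries were above both Het libraries (difference of means 2.29 percentage points, exact permutation p = 0.1, two-sided, the smallest this design allows). The shares before thinning were 65.3% and 67.8%, and red-cell barcodes gave 3.61%. No share comparison of 2 against 3 libraries can reach 0.05, and 40 of them were made over the genes, all kept cells and the 4 lineages. Of these, 9 stood at 0.1, 8 with KO higher and 1 lower. Such shares were not computed for other genes, and the lineages are parts of all kept cells. The count of 9 and its direction are therefore no result about these genes. The lower was Rbx1 in endothelial cells, with 68.1% and 69.2% in Het against 64.6%, 66.4% and 66.04% in KO. Elob over all kept cells, at 68.6% and 69.98% against 71.01%, 73.3% and 70.9%, was among the higher.

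Within the 4 lineages none of the 8 genes passed an adjusted p of 0.05 in edgeR. Of all genes tested, 9.2% passed in epithelial, 5.42% in endothelial, 0.0873% in mesenchymal and 7.76% in immune cells. Over the alternatives run these shares ranged from 0.196% to 14.2%, 0.955% to 7.58%, 0% to 1.6% and 1.4% to 9.57%. At an unadjusted p under 0.05 edgeR gave 1 of the 8 in each of the epithelial, endothelial and mesenchymal lineages and 0 in immune cells, against 26.5%, 20.8%, 12.2% and 22.8% of all genes. DESeq2 gave 1, 0, 1 and 0. The groups did not overlap for 1 of 8 genes in epithelial cells (45.1% of all genes), 5 of 8 in endothelial cells (38.9%), 4 of 8 in mesenchymal cells (30.8%) and 1 of 8 in immune cells (41.6%). The 5 in endothelial and the 4 in mesenchymal cells were all higher in KO, against 18.9% and 15.3% of all genes higher without overlap. The median log2 difference over the 8 genes was -0.04 in epithelial, 0.09 in endothelial, 0.08 in mesenchymal and 0.0044 in immune cells, against 0.0028, 0.0045, -0.0024 and 0.0097 over all genes tested.

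**Figure D4:**
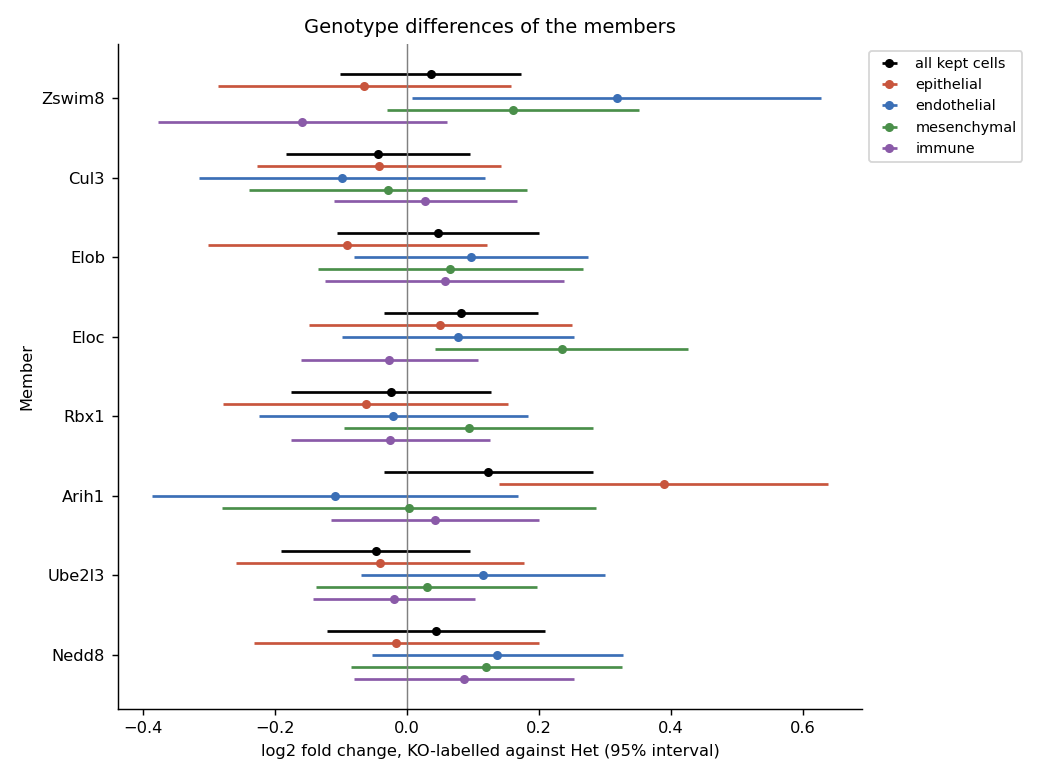
Log2 difference, KO over Het, of each of the 8 genes in all kept cells and the 4 lineages (points), with 95% intervals from the edgeR fit (bars) and a line at 0. The intervals that leave 0 out are Arih1 in epithelial cells (0.14 to 0.64), Zswim8 in endothelial cells (0.01 to 0.63) and Eloc in mesenchymal cells (0.04 to 0.43), and none of the 3 passed adjustment over all genes.

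In endothelial cells Zswim8 stood at 45.4 and 46.7 CPM in Het and at 64.4, 48.9 and 59.0 in KO. All KO values were higher, with KO2 close to the Het values. The log2 difference was 0.32 (SE 0.14, interval 0.01 to 0.63, edgeR adjusted p = 0.229). Lymphatic-like cells, the class with the most Zswim8, made up 2.7% and 1.95% of the endothelial cells in Het and 12.7%, 6.6% and 10.3% in KO. With them left out the levels were 43.9 and 45.9 against 54.6, 44.7 and 48.8 CPM. The groups then overlapped, and the log2 difference was 0.13 (SE 0.13, adjusted p = 0.627).

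In mesenchymal cells Zswim8 stood at 45.8 and 44.6 CPM in Het and at 51.8, 50.7 and 49.2 in KO, again higher in each KO library, with a log2 difference of 0.16 (interval -0.03 to 0.35, edgeR adjusted p = 0.470). In immune cells Zswim8 stood at 29.9 and 32.0 CPM in Het against 23.9, 29.0 and 29.8 in KO, lower in each KO library by a margin that TMM scaling sets. Without it the levels were 29.0 and 31.3 against 24.02, 28.9 and 31.2 CPM, and the groups overlapped. The scaled levels gave a log2 difference of -0.16 (interval -0.38 to 0.06, edgeR adjusted p = 0.374). In epithelial cells the groups overlapped, at 42.1 and 45.3 against 38.9, 42.2 and 44.0 CPM. The test of whether the genotype difference of Zswim8 itself differed between lineages gave an unadjusted p of 0.0175 in edgeR and an adjusted p of 0.121. Of 16433 genes, 7.74% passed this test, and 0 of the 8. Arih1, at an adjusted p of 0.163, was next among them.

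Eloc in mesenchymal cells stood at 137 and 123 CPM in Het and at 153, 157 and 148 in KO. All 3 KO libraries were above both Het libraries, with a log2 difference of 0.24 (SE 0.08, interval 0.04 to 0.43, edgeR adjusted p = 0.337). The share of thinned mesenchymal cells with Eloc was 30.8% in both Het libraries and 35.2%, 36.9% and 34.9% in KO (exact permutation p = 0.1, the smallest possible). Elob in these cells stood at 530 and 522 CPM against 530, 590 and 534, with an interval of the log2 difference from -0.13 to 0.27.

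In epithelial cells Arih1 stood at 70.3 and 67.1 CPM in Het and at 103, 85.1 and 83.1 in KO. Every KO library was above both Het libraries, KO1 by the most. The log2 difference was 0.39 (SE 0.11, interval 0.14 to 0.64, edgeR adjusted p = 0.0629). Arih1 passed the threshold with DESeq2 (adjusted p = 0.0369), but not in the edgeR test used throughout. The log2 difference was 0.27 with embryo sex as a term (adjusted p = 0.346), 0.20 with doublets kept (0.588), 0.21 at Leiden resolution 0.5 (0.600) and 0.35 without Het2 (0.317). After thinning, 16.4% and 16.1% of epithelial cells held an Arih1 UMI in Het, against 25.5%, 21.03% and 20.03% in KO (exact permutation p = 0.1, the smallest possible), and 46.1% and 54.3% on average before thinning. Ube2l3, which works with ARIH1, stood at 124 and 139 against 117, 134 and 132 CPM in the same cells, with the groups overlapping (log2 difference -0.04, interval -0.26 to 0.18).

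Over the 11 classes, 1 of the 88 tests passed: Arih1 rose in KO in AT1-like cells. These cells are part of the epithelial lineage, so this call and the epithelial Arih1 difference share counts and are not separate results. The Arih1 level in the class was 72.1 and 69.0 CPM in Het and 111, 92.2 and 86.2 in KO. All KO libraries were higher and the groups did not overlap, as for 53% of all genes tested in these cells (26.2% with KO higher). The log2 difference was 0.45 (SE 0.12, interval 0.18 to 0.71, edgeR adjusted p = 0.0244). In these cells 22.4% of all genes tested passed, a larger share than in the other 10 classes, where it ran from 0.0551% to 6.22%. It was 7.27% with embryo sex as a term, and lay between that and 25.5% over the alternatives run on the whole class. DESeq2 gave an adjusted p of 0.0130.

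This call does not hold under every setting. Without Het1 the log2 difference was 0.47 with an adjusted p of 0.122, and without Het2 it was 0.40 with 0.197. With embryo sex as a term it was 0.29 with an adjusted p of 0.284. The class joins cluster 11, led by Aqp5 and Ager, with cluster 24, led by Cldn18 and Tspan8, whose cells had a median of 3.14 times the UMIs of their own libraries' cells.

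Cluster 11 made up 46.4% and 44.3% of the AT1-like cells in Het, and 18.2%, 17.4% and 23.0% in KO. With each cluster scaled on its own, Arih1 in cluster 11 stood at 55.3 and 46.6 CPM in Het against 87.7, 70.9 and 63.8 in KO, with a log2 difference of 0.47 and an adjusted p of 0.332. Cluster 24 alone, at 74.6 and 72.6 against 113, 94.1 and 88.2 CPM, gave 0.41 and an adjusted p of 0.0303. Of all genes tested, 0.757% passed in cluster 11 and 22.3% in cluster 24. Mixed cells, which held 3 or more markers that belong to a different lineage, made up 45.5% and 46.6% of AT1-like cells in Het and 27.1%, 37.4% and 42.1% in KO. Without them the log2 difference was 0.62 with an edgeR adjusted p of 0.0540. The summed UMIs of the class were 12355726 and 13254679 in Het and 6489748, 11188493 and 14516835 in KO. All epithelial cells together held 23240482 and 20599204 in Het and 9715363, 16299785 and 18975272 in KO. Cluster 24 held most UMIs of the class, 10467669 and 11209982 in Het and 6218889, 10475273 and 13594703 in KO. Without mixed cells 2837848 and 2874351 were left in Het and 2726338, 3466605 and 3682331 in KO. The kept AT1-like cells numbered 192, 235 and 335 in KO against 429 and 406 in Het1 and Het2. The part of these shares in the Arih1 difference was not tested beyond these fits.

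**Figure D5:**
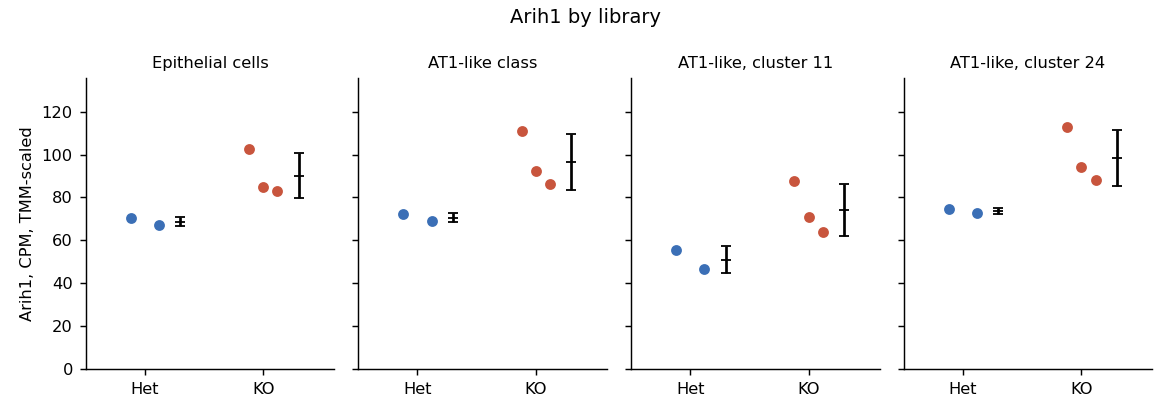
Arih1 level in TMM-scaled CPM (shared vertical axis, starting at 0) in the 2 Het and 3 KO libraries (points). The group mean is a line, and the bar on it is the SD over the group's libraries. The panels show all epithelial cells, the AT1-like class as a whole, and each of its 2 clusters fitted alone. KO values lie above Het values in every panel, and the panels were scaled separately.

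In the other epithelial classes the Arih1 levels were set side by side without a test. AT2-like cells held 62.6 and 75.7 CPM in Het and 108, 95.1 and 76.7 in KO, the KO1 and KO2 values from 30 cells each. Club-like cells held 66.7 and 56.3 against 78.9, 70.5 and 71.7 CPM, higher in each KO library. Ciliated-like cells held 78.7 and 61.3 against 71.4, 70.9 and 65.1 CPM, with the groups overlapping.

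Alveolar fibroblast-like cells, which support the forming alveoli, had the next largest differences in the set. Eloc stood there at 108 and 120 CPM in Het and at 157, 140 and 150 in KO, higher in each KO library, with a log2 difference of 0.38 (SE 0.12, interval 0.12 to 0.65, edgeR adjusted p = 0.0912). Rbx1, at 257 and 235 against 285, 300 and 303 CPM, and Nedd8, at 255 and 243 against 292, 309 and 296 CPM, were also higher in each KO library. Groups did not overlap for 37.7% of all genes tested in these cells, 19.2% with KO higher. The log2 differences of Rbx1 and Nedd8, 0.27 and 0.26, had adjusted p of 0.227 and 0.228 in edgeR. These 3 of the 8 genes had an unadjusted p under 0.05 in edgeR, as did 19.5% of all genes tested in these cells. With DESeq2 0 of the 8 did, against 944 of 9674 genes. Elob in cluster 3, an immune cluster led by Gpr171 and S100a4, stood at 320 and 336 against 410, 430 and 351 CPM (log2 difference 0.27, edgeR adjusted p = 0.233). Arih1 in cycling immune cells stood at 82.7 and 77.0 against 99.3, 89.2 and 87.5 CPM (0.20, edgeR adjusted p = 0.256).

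The rest of the pathway was read from 131 further genes in 8 lists: cullins with their RING partner, NEDD8 conjugation, NEDD8 removal and adaptor exchange, elongin BC adaptors, BTB adaptors of CUL3, RING-between-RING ligases, ubiquitin E1 and E2 enzymes, and ZSWIM genes. Over all kept cells 0 of the 131 passed, and in mesenchymal cells 0 of 127. In epithelial cells 4 of 131 passed (3.05%, against the 9.2% of all genes given above), in endothelial cells 2 of 122 (1.64%, against 5.42%) and in immune cells 9 of 127 (7.09%, against 7.76%). None of these shares was above that of all genes. No RING-between-RING ligase, ubiquitin E1 or E2 enzyme or ZSWIM gene of the lists passed in any lineage.

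The list medians were close to 0 throughout. Over all kept cells they ran from -0.06 for the 33 elongin BC adaptors, with 14 positive and 19 negative log2 differences, to 0.05 for the 14 genes of NEDD8 removal and adaptor exchange, with 11 positive and 3 negative. In endothelial cells the RING-between-RING ligases had a median of -0.11, with 10 of 11 negative, and the genes of NEDD8 conjugation one of 0.12, with 7 of 9 positive. In epithelial cells the ZSWIM genes other than Zswim8 had a median of 0.15, with 5 of 8 positive.

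Among adaptors that share the elongins with ZSWIM8, Wsb1 rose in epithelial cells, from 79.8 and 82.9 CPM in Het to 132, 108 and 118 in KO (log2 difference 0.55, edgeR adjusted p = 0.0145). Cish, a suppressor of cytokine signalling, fell in endothelial cells, from 100.1 and 91.0 to 56.9, 69.1 and 53.8 CPM (-0.67, adjusted p = 0.0207). In immune cells Spsb1 fell by 0.98 and Vhl, the adaptor that targets hypoxia-inducible factor, by 0.42 on the log2 scale, while Fem1b rose by 0.38. That made 1 of 33 elongin BC adaptors higher in epithelial cells, 1 of 31 lower in endothelial cells, and 1 higher and 2 lower of 31 in immune cells.

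Among the BTB adaptors, which bind CUL3 directly, Tnfaip1 fell in epithelial cells from 76.1 and 76.7 to 58.4, 58.1 and 60.8 CPM (-0.37, edgeR adjusted p = 0.0270). Spop, an adaptor studied for its cancer mutations, fell in endothelial cells from 84.7 and 75.1 to 52.1, 50.98 and 53.1 CPM (-0.62, adjusted p = 0.0125). In immune cells Rhobtb1 rose from 3.17 and 3.08 to 6.42, 6.26 and 6.45 CPM (1.03, adjusted p = 0.00375) and Enc1 fell by 0.40.

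Of the other cullins and their RING partner, Cul9 rose in epithelial cells (0.67) and in immune cells (0.75), in the latter from levels under 2 CPM. Rnf7, the RING partner of CUL5, rose in immune cells from 104 and 108 to 127, 123 and 122 CPM (0.23, edgeR adjusted p = 0.0402). Among genes of NEDD8 conjugation Dcun1d3 fell in immune cells by 0.65, and of the COP9 signalosome, which removes NEDD8, Gps1 rose there by 0.27. Of these 15 calls, 14 were lost with embryo sex as a term, 14 without Het1 and 15 without Het2, all fits with fewer residual degrees of freedom. All 15 kept their direction, with log2 differences from 0.632 to 1.23 times those reported with the sex term, 0.757 to 1.33 times without Het1 and 0.708 to 1.25 times without Het2. Rhobtb1 was the one that kept an adjusted p under 0.05 (0.0350) with the sex term.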

How the data were processed

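The 5 libraries of embryonic mouse lung (10x 3′, version 3.1) were grouped as 2 Het and 3 KO by the labels. The deposited files hold UMI counts per gene and barcode, not normalized. They were made with Cell Ranger 4.0.0 against mm10, per the submitters' processing notes. Chromosome positions come from the GRCm38 gene annotation.

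Here barcodes were filtered (at least 500 genes, at most 15% mitochondrial counts), with no cut on haemoglobin. Barcodes with fewer genes and over 50% haemoglobin counts were set apart as red-cell barcodes. Doublets were marked by nearness to simulated doublets and 0.8% per 1000 cells removed. Cells were clustered with scanpy 1.11.5 (2000 variable genes, 30 components, 15 neighbours, Leiden resolution 1). The 8 genes, the pathway lists and sex-linked, mitochondrial and haemoglobin genes were left out of the variable genes. A class was named from at least 3 of its markers. The class names are thus rebuilt from the counts.

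UMIs were summed per library within all kept cells, a lineage or a class and tested with edgeR 4.0.16 (quasi-likelihood, TMM scaling, low-count filter) over all genes, two-sided, with Benjamini-Hochberg adjustment and a threshold of 0.05. Levels from these fits are TMM-scaled, and levels by class are plain CPM of the sums. The fits were tested on simulated counts with 200 genes changed by 1 on the log2 scale: 94.5% were recovered over all kept cells, 98.5% in epithelial, 77% in endothelial, 90.5% in mesenchymal, 100% in immune cells. In the classes it ran from 59.5% (neutrophil-like) to 99.5% (cycling immune), with 97% in AT1-like and 62% in alveolar fibroblast-like cells. Smaller changes, such as all those of the 8 genes, were not simulated. Nothing in the labels says that embryos of a group came from separate litters, so p-values measure the spread between these embryos. Sums per lineage cannot tell fewer cells of a type from less RNA per cell. Shares cover counting of UMIs, not expression in a cell.

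The 8 genes, the pathway lists and the tests were chosen with earlier results of these data known. All 8 genes are named in each fit. List genes are named where they passed, up to the 3 largest changes per list and direction, except 1 that is counted but not reported here, and genes of like pattern are the 5 nearest for Zswim8 and the 2 nearest for the others. Alternatives were another scaling, DESeq2 1.42.0, no low-count filter, other cell filters and clusterings, each library left out, a sex term, a replicate block and other thinning depths.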

Additional observations from a re-analysis of the deposited data

Results flagged for a closer look

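Barcodes that failed the filters and were not red-cell barcodes also held UMIs of all 8 genes. They entered none of the main comparisons, only the alternative that summed all barcodes. These barcodes numbered between 1653 and 3728 per library. The mean level over the 5 libraries was 31.4 CPM for Zswim8, 59.6 for Cul3, 251 for Elob, 74.1 for Eloc, 179 for Rbx1, 76.6 for Arih1, 77.3 for Ube2l3 and 166 for Nedd8. They were singled out because any UMI there lies outside the main comparisons. There were between 152 and 201 UMIs per library for Zswim8 and between 1188 and 1592 for Elob. No group of samples had 4 or more libraries, so no library was examined as an outlier within its group.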

How the results depend on the processing

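The log2 differences of the 8 genes in all kept cells and the 4 lineages, 40 in all, were recomputed under 600 alternatives: 546 kept direction and side of the threshold, 4 newly passed, none passed only originally, and 50 turned direction, in 22 differences of at most 0.11. Causes were not tested. Arih1 in epithelial cells passed with DESeq2, library size alone, no low-count filter and the replicate block, so the number of genes called there was 1 in place of 0. Over the classes that number ran from 0 to 3 with 1 library left out (0 without Het1 or Het2, 3 without KO3, with Elob in clusters 3 and 6 added). Averaged over cells, Zswim8 stood at 35.3 CPM (38.9 from sums) and Cul3 at 78.8 (85.7). At 1500 UMIs the Eloc share differed by 1.42 percentage points (2.29 at 3000).

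Turned by the sex term were Cul3 (0.0072), Elob (-0.0184) and Nedd8 (-0.0033) in all kept cells; Zswim8 (0.0109), Cul3 (0.0056) and Ube2l3 (0.0028) in epithelial; Cul3 (0.0086) and Arih1 (-0.1856) in mesenchymal; Elob (-0.0843), Arih1 (-0.0472) and Nedd8 (-0.0326) in immune cells. By library size alone these turned: Rbx1 in all kept cells (0.0072), Arih1 (-0.029) and Ube2l3 (-0.0018) in mesenchymal, and Eloc (0.0352), Rbx1 (0.0358) and Ube2l3 (0.0421) in immune cells. With doublets kept Zswim8 (0.0066) and Nedd8 (0.0706) turned in epithelial cells, and at Leiden resolution 0.5 Zswim8 (0.001), Eloc (-0.001) and Nedd8 (0.0642). The stricter cell filter turned Nedd8 in epithelial (0.0018) and Arih1 in mesenchymal cells (-0.0117). Leaving out mixed cells turned Cul3 (0.0101) and Arih1 (-0.0106) in mesenchymal cells, and Leiden resolution 2 turned Arih1 there (-0.0722).

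With 1 library left out, these ranges crossed 0 (a lone Het library is assumed to vary like the KO libraries). In all kept cells: Rbx1 -0.0652 to 0.0051 and Nedd8 -0.0068 to 0.0737. In epithelial cells: Rbx1 -0.1148 to 0.004, Ube2l3 -0.1211 to 0.0333 and Nedd8 -0.0873 to 0.0329. In endothelial cells: Rbx1 -0.0851 to 0.0219 and Arih1 -0.2346 to 0.024. In mesenchymal cells: Cul3 -0.1156 to 0.0701 and Arih1 -0.1275 to 0.1444. In immune cells: Cul3 -0.0084 to 0.0615, Eloc -0.0667 to 0.0107, Rbx1 -0.0539 to 0.0181 and Arih1 -0.0067 to 0.089.

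Whether the replicate numbers pair the libraries could not be decided. The correlation of deviations from the group mean was -0.136 for Het1 with KO1 and -0.182 for Het2 with KO2. With 2 Het libraries these deviations mirror each other, so Het2 with KO1 gave 0.136 and Het1 with KO2 gave 0.182. Both numbered pairs also join a male Het with a female KO embryo. With the replicate block, Arih1 in epithelial cells had a log2 difference of 0.44 (adjusted p = 0.0161), Cul3 (-0.0019) and Rbx1 (0.0181) turned in immune cells, and over all kept cells 8 genes passed in place of 793. With the sex term 1 passed, without Het1 2, without Het2 4, without KO2 334 and without KO3 111.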
